A study of Mus musculus with 12 samples.

Results

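The genes described here are 7 drug efflux ABC transporters, Abcg2, Abcb1a, Abcb1b, Abcc1, Abcc3, Abcc4 and Abcc5, out of 56691 genes in the deposited tables. They were taken by symbol, and the set was put together with results of these data known, Abcg2 being chosen by its measured change, which was downward in the knockout cells of both lines. The change of any of the 7 between knockout and control, and its difference between the lines, is therefore given here as a description with no p-value, and calls of the 7 are counted only beside those of all genes. Libraries of polyA-captured RNA were sequenced from 2 cultured mouse mammary tumour lines, 4T1 and EMT6, both derived from BALB/c mice. Each line was given as control cells of genotype WT and as knockout cells (KO) labelled sgNEDD4, with 3 libraries per group and 12 libraries in all. No drug or other treatment is named for any group. The sources used here do not say whether the knockout cells are 1 clone or a pool, where the guide cuts, or whether the 3 libraries of a group are separate cultures, and p-values therefore measure only the spread between these libraries.

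ABC transporters are membrane proteins that use ATP to move substrates across a membrane, and the efflux pumps among them carry drugs, conjugates and signalling molecules out of the cell. Abcg2 (breast cancer resistance protein) works as a dimer of short subunits, exports porphyrins, urate and several anticancer drugs, and marks the side population of stem-like cells in mouse mammary gland and marrow. Abcb1a and Abcb1b are the rodent pair of P-glycoprotein genes, which in human is a single gene. Abcc1, Abcc3, Abcc4 and Abcc5 encode multidrug resistance proteins (MRPs) that export organic anions: leukotriene C4 and glutathione conjugates by Abcc1, bile salts and glucuronides by Abcc3, and cyclic nucleotides by Abcc4 and Abcc5.

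All 7 genes are protein-coding in GENCODE M21, an annotation of GRCm38. Abcg2 (ENSMUSG00000029802) lies on the plus strand of chromosome 6, from 58584523 to 58695676. Abcb1a (ENSMUSG00000040584) and Abcb1b (ENSMUSG00000028970) are neighbours on the plus strand of chromosome 5, at 8660077 to 8748575 and at 8798147 to 8866315. Abcc1 (ENSMUSG00000023088) lies on the plus strand of chromosome 16 at 14361558 to 14475737, and Abcc5 (ENSMUSG00000022822) on the minus strand of the same chromosome at 20331303 to 20426394. Abcc3 (ENSMUSG00000020865) is on the minus strand of chromosome 11 at 94343295 to 94392997. Abcc4 (ENSMUSG00000032849) is on the minus strand of chromosome 14 at 118482692 to 118706219.

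RefSeq (GRCm38.p6) gave upstream windows of 250 bases for 5 of the 7 genes, with 8 start sites, and Abcc1 and Abcc3 were not matched. The windows printed are of Abcg2 and Abcc4, which had the largest knockout changes among the matched genes, and of Abcb1b, which had the largest difference between the control cells. Each window is printed 5′ to 3′ on the gene's strand, and capitals mark matches on either strand to a GC box (GGGCGG), an AHR-ARNT core (GCGTG), an antioxidant response element core (TGACNNNGC), a CCAAT box (CCAAT) or a TATA box (TATAAA).
Abcg2 start site 2, chr6:58596422-58596671 (plus strand): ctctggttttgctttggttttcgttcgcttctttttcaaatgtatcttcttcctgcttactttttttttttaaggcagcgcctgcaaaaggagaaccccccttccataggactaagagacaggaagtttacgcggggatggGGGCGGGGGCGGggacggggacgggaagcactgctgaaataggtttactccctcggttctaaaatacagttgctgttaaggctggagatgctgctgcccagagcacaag
Abcg2 start site 3, chr6:58640296-58640545 (plus strand): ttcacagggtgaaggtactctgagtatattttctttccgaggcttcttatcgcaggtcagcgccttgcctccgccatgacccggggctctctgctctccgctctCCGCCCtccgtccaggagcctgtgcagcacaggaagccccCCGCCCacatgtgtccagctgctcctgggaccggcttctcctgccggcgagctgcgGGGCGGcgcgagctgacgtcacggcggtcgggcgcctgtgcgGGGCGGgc
Abcb1b start site 1, chr5:8797897-8798146 (plus strand): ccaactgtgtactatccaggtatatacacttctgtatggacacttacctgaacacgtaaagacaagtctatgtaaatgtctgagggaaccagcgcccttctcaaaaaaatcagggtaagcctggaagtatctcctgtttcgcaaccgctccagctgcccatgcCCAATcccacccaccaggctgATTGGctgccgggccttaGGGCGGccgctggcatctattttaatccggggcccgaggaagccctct
Abcc4 start site 2, chr14:118706220-118706469 (minus strand): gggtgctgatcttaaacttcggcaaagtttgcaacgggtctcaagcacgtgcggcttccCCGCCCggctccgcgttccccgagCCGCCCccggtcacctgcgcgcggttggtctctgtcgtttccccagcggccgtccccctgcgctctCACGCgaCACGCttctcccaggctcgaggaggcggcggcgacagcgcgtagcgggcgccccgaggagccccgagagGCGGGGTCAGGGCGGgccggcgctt

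Abcg2 start site 3 held 4 GC boxes and 67.6% G and C, and start site 2 held 2 adjacent GC boxes. Abcg2 start site 1, not printed, held none of the 5 motifs (51.2% G and C), and Abcc4 start site 1, not printed, held 1 antioxidant response element core and no GC box (47.6% G and C). The Abcb1b window held 1 GC box and 2 CCAAT boxes. Abcc4 start site 2 was the richest in G and C (72.0%), and held 3 GC boxes, 2 AHR-ARNT cores and 1 antioxidant response element core, which adjoins a GC box. Over 32851 RefSeq windows of the same length the median was 52.4% G and C. A GC box was present in 32.7% of them, a CCAAT box in 33.8%, an AHR-ARNT core in 28.2%, an antioxidant response element core in 10.2% and a TATA box in 12.4%. None of the 4 printed windows had a TATA box of these letters, no match overlapped another, and a match is a description of letters only. Which start site the libraries used was not analysed here, since the tables hold 1 count per gene.

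The P-glycoprotein genes are near-copies, which bears on how their reads are counted. Their longest coding frames were identical at 3370 of 3819 aligned bases (88.2%), with a longest identical run of 338 bases. Identity was counted over aligned bases, with gaps left out. Every other pair without Abcg2 was 59.3% to 65.2% identical. Pairs with Abcg2 stood at 68.9% to 71.6%, but its frame of 1974 bases was spread with gaps over much longer frames. These values are therefore not comparable with the others. The 60 coding bases in which they differ most are shown with their 25 differing bases in capitals, numbered from the first base of the start codon, because stretches of this kind tell the genes apart.
Abcb1a, coding bases 1913 to 1972: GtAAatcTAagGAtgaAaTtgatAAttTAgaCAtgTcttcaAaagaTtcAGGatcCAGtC
Abcb1b, coding bases 1922 to 1981: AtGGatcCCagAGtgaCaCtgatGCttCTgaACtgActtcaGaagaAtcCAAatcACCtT
Of the 100-base windows of the transcripts, 13.4% in Abcb1a and 6.61% in Abcb1b also occurred in another gene, and none did in the other 5 members. The sources used here do not say how reads that match several genes were counted, so the split of reads between this pair is uncertain.

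The libraries held 13705612 to 19761604 counts, and 3 counts are 0.152 to 0.219 CPM, the count after scaling to the size of the library. The sample titles and library names give no batch. Nedd4, the targeted ubiquitin ligase, had a log2 change of -2.01 ± 0.04 in 4T1 and -3.34 ± 0.06 in EMT6 (KO over control, SE, n = 3 per group), with no overlap of groups. It remained at 24.74 to 25.32 FPKM in 4T1 KO and 11.46 to 12.12 in EMT6 KO, where FPKM are reads scaled by exon length and library total. Genes with at least 1 count numbered 20937 to 21264 in the 4T1 KO libraries and 18836 to 19017 in the 4T1 controls, and overlapped between the groups of EMT6. Epithelial markers summed to 1933 to 2008 FPKM in 4T1 controls and 1412 to 1491 in 4T1 KO, but to 351 to 418 and 379 to 393 in EMT6. Cdh1 (E-cadherin), a defining epithelial gene, was at or near 0 in EMT6. Most of the EMT6 sum was Krt8, at 293 ± 32.5 FPKM in controls and 352 ± 8.59 in KO (SD). Krt18 went from 76.2 ± 4.31 to 32.5 ± 1.47 FPKM there. Of 6 epithelial markers tested in EMT6, 4 were called lower and 1 higher. Of 7 tested in 4T1, 4 were called lower and 0 higher. The 7 mesenchymal markers summed to 1155 to 1238 FPKM in EMT6 controls and 2020 to 2188 in EMT6 KO, and 6 of the 6 tested were called higher. In 4T1 their sums overlapped, at 892 to 978 FPKM in controls and 952 to 959 in KO. Of 3 tested there, 1 was called higher and 1 lower. The 9 leukocyte markers summed to 28.6 to 34.4 FPKM in EMT6 controls and 16.2 to 18.1 in EMT6 KO, with Ptprc (CD45) at 0 in both. Within this list Cd68 went from 19.4 ± 2.07 to 7.39 ± 0.937 FPKM (SD), and Csf1r from 0.513 ± 0.0987 to 1.04 ± 0.0850. The 5 fibroblast markers summed to 6.39 to 6.59 FPKM in EMT6 controls and 14.2 to 15.3 in EMT6 KO. Only 2 of them were tested there, 1 called higher and 1 lower. Pdgfrb went from 0.953 ± 0.250 to 9.78 ± 0.160 FPKM (SD), and Pdgfra from 5.55 ± 0.321 to 4.83 ± 0.481. The part of these differences in the transporter values was not tested.

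Abcg2 was low in 4T1 and higher in EMT6, and within each line every KO library lay below every control. In 4T1 the controls stood at 0.37, 0.36 and 0.45 FPKM, from 49, 44 and 50 reads. The 4T1 KO libraries stood at 0.01, 0.04 and 0.05 FPKM, from 2, 5 and 7 reads, so these values rest on few reads and 1 library is below the 3 counts taken as a floor. In EMT6 the controls stood at 2.52, 2.48 and 2.47 FPKM, from 294 to 387 reads. The EMT6 KO libraries stood at 0.50, 0.45 and 0.42 FPKM, from 54 to 79 reads. The EMT6 KO level was thus about that of the 4T1 controls, with ranges of 0.42 to 0.50 and 0.36 to 0.45 FPKM that overlap.

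The log2 change of Abcg2 was -3.58 ± 0.36 (SE) in 4T1 and -2.44 ± 0.12 in EMT6. From summed reads scaled to library totals, the control level was 11.6 times the KO level in 4T1 (143 against 14 reads, exact 95% interval 6.70 to 21.8) and 5.43 times in EMT6 (1050 against 205 reads, interval 4.67 to 6.34), intervals that cover counting error only. In 4T1 the gene passed the filter on low counts through its controls alone. A log2 change of -2 or below was seen in 0.421% of tested genes in 4T1 and 1.84% in EMT6, and 7.85% of genes tested in both lines were called lower in each. Since these changes chose Abcg2, nothing is read from its place among them. The change differed between the lines by 1.12 ± 0.36 (EMT6 minus 4T1), and by 0.78 without 4T1 KO replicate 1, the library with 2 reads.

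**Figure D1:**
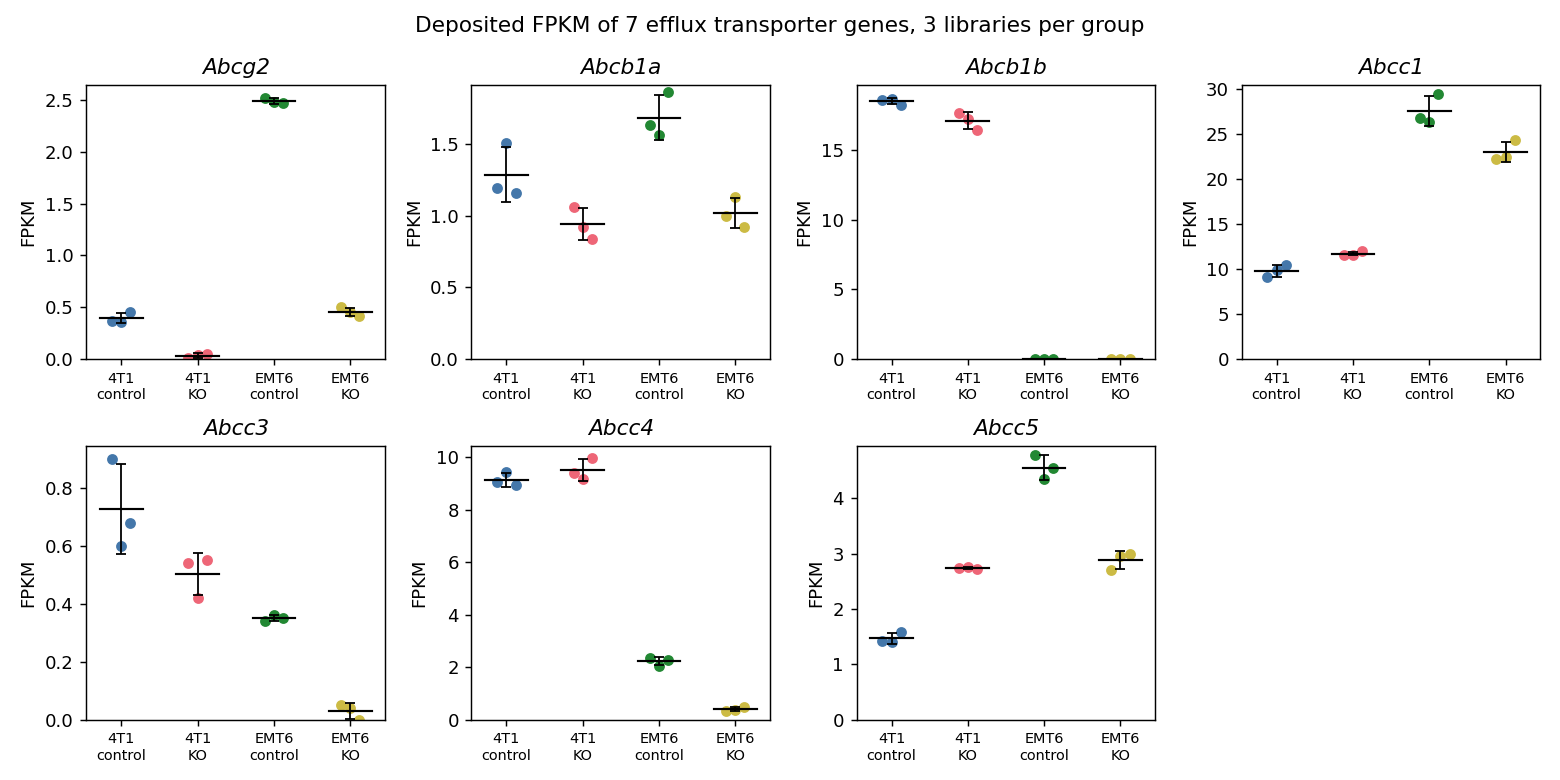
Deposited FPKM (y axis, linear, from 0, scaled separately in each panel) of each of the 7 transporters by line and genotype (x axis), with points for libraries, horizontal lines for group means and error bars for the SD (n = 3). Abcg2 KO libraries lie below the controls in both lines, from 2.52 down to 0.42 FPKM in EMT6 and from 0.45 down to 0.01 in 4T1, whereas Abcb1b is near 18 FPKM in 4T1 and at most 0.02 in EMT6.

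The P-glycoprotein genes differed from each other and between the lines. Abcb1b had the highest FPKM of the 7 in 4T1, at 18.61, 18.65 and 18.25 FPKM in controls and 17.63, 17.24 and 16.41 in KO. By summed reads, not scaled by exon length, Abcb1b and Abcc1 were near equal in 4T1 controls (6631 and 6616). In 4T1 KO, Abcb1b had fewer (6953 against 9029). In EMT6 it had 0, 1 and 2 reads in the controls and 1, 2 and 2 in KO, all under 3 counts, and its change there was not tested. The groups of 4T1 did not overlap, but the difference was small (log2 change -0.19 ± 0.05, SE).

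Abcb1a stood at 1.19, 1.51 and 1.16 FPKM in 4T1 controls and 1.06, 0.92 and 0.84 in 4T1 KO. In EMT6 it stood at 1.63, 1.56 and 1.86 FPKM in controls and 1.00, 1.13 and 0.92 in KO. All KO libraries lay below all controls in each line, with log2 changes of -0.53 ± 0.16 and -0.73 ± 0.14. In 4T1 the call was lost without control replicate 2 (log2 change -0.39). The changes of Abcb1a in the lines were not told apart (difference -0.21 ± 0.22, SE, 95% interval -0.64 to 0.21). Genes that overlap the pair in M21, Gm42686, Gm5106 and 7330423F06Rik, had at most 10 reads in any library.

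Among the MRP genes, Abcc1, the exporter of glutathione conjugates and leukotriene C4, had the highest mean in all 4 groups. It stood at 9.09, 9.91 and 10.44 FPKM in 4T1 controls and 11.63, 11.62 and 11.97 in 4T1 KO, so KO was higher (log2 change 0.18 ± 0.05, SE). In EMT6 it stood at 26.87, 26.42 and 29.48 FPKM in controls and 22.23, 22.52 and 24.34 in KO, so KO was lower (-0.26 ± 0.06). Neither pair of groups overlapped.

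Abcc5, an exporter of cyclic nucleotides, showed the same opposite pattern at larger size. Its 4T1 controls stood at 1.43, 1.40 and 1.58 FPKM and its 4T1 KO libraries at 2.75, 2.76 and 2.72. The EMT6 controls stood at 4.78, 4.34 and 4.54 FPKM and the EMT6 KO libraries at 2.71, 2.95 and 3 FPKM. KO was thus higher in 4T1 (log2 change 0.82 ± 0.08) and lower in EMT6 (-0.66 ± 0.07), and the ranges of the KO groups overlapped across lines (2.74 ± 0.0208 and 2.89 ± 0.155 FPKM, SD), while the controls were 1.47 ± 0.0964 and 4.55 ± 0.220.

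Abcc4, which exports cyclic AMP, prostaglandins and nucleotide analogues, differed with genotype in EMT6 and not detectably in 4T1. The 4T1 controls stood at 9.07, 9.43 and 8.93 FPKM and the KO libraries at 9.40, 9.17 and 9.96, which overlap. Its log2 change there was -0.02 ± 0.06 (95% interval -0.13 to 0.09), and its sign turned under 4 alternative settings. In EMT6 the controls stood at 2.35, 2.05 and 2.27 FPKM and KO at 0.35, 0.39 and 0.48, a log2 change of -2.45 ± 0.15. By summed reads the EMT6 control level was 5.50 times that of KO (732 against 141 reads, exact 95% interval 4.59 to 6.64).

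Abcc3, an exporter of bile salts and glucuronides, was under 1 FPKM in every library. The 4T1 controls stood at 0.90, 0.60 and 0.68 FPKM and the KO libraries at 0.54, 0.42 and 0.55. These groups did not overlap (log2 change -0.61 ± 0.21), but the call was lost without control replicate 1 (-0.42) or KO replicate 2 (-0.50). In EMT6 the controls stood at 0.34, 0.36 and 0.35 FPKM, from 28 to 38 reads, and KO at 0.05, 0.04 and 0, from 6, 4 and 0 reads. The fitted log2 change was -3.41 ± 0.48, ranging from -2.92 without KO replicate 3 to -4.07 without KO replicate 1. The control level by summed reads was 10.9 times that of KO (103 against 10 reads, interval 5.70 to 23.4), and the gene passed the low-count filter through its controls alone.

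A gene is called where its adjusted p in edgeR's quasi-likelihood test, over all tested genes, is under 0.05. Of the 7 members, 6 were called in 4T1, 2 higher and 4 lower, where 57.0% of all 13313 tested genes were called, 28% higher and 29.0% lower. In EMT6, 6 of the 6 tested genes were called, all lower, where 56.0% of 12890 were called, 27.9% higher and 28.2% lower. Groups did not overlap for 6 members in each line, as for 61.9% of all tested genes in 4T1 and 62.6% in EMT6. The rule used these contrasts, so nothing is read from the counts.

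**Figure D2:**
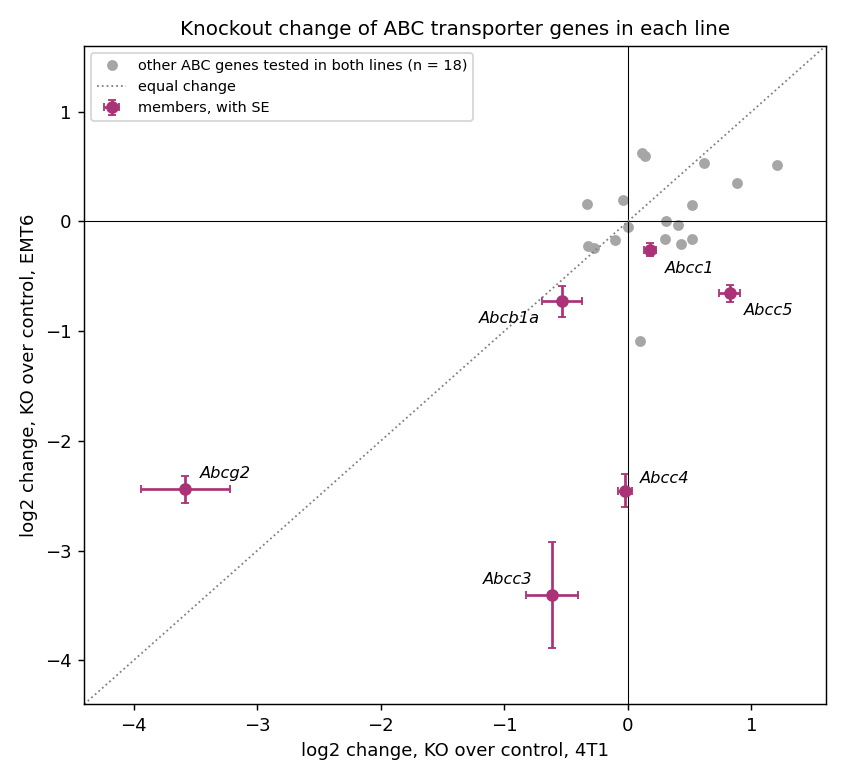
Log2 change of KO over control in EMT6 (y axis) against that in 4T1 (x axis) for the 6 transporters tested in both lines (purple, with SE bars from edgeR) and 18 other ABC genes (grey), with solid lines at 0 and a dotted line of equal change. Abcg2, Abcb1a and Abcc3 lie below 0 on both axes, Abcc1 and Abcc5 lie above 0 in 4T1 and below 0 in EMT6, and Abcc4 is near 0 in 4T1 and at -2.45 in EMT6.

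The size of the change was compared between the lines as the interaction of line and genotype over all 12 libraries. It was called for 5 of the 6 members tested in both lines, 1 higher and 4 lower, where 59.9% of 12006 genes were called, 29.7% higher and 30.2% lower. Because it is built from the contrasts that chose the set, nothing is read from this count. The difference (EMT6 minus 4T1, SE) was -2.45 ± 0.14 for Abcc4, -2.81 ± 0.52 for Abcc3, -1.50 ± 0.11 for Abcc5 and -0.46 ± 0.08 for Abcc1. Abcc3 passed the filter in EMT6 through its controls alone. The remaining called member was Abcg2 (1.12 ± 0.36), and its call was lost without 4T1 KO replicate 1.

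The control cells of the lines were compared for every member. This comparison was not used to choose the genes, and it takes in everything that differs between the cultures besides the line. EMT6 controls were higher than 4T1 controls for Abcg2 (log2 difference 2.69 ± 0.15, SE, edgeR adjusted p = 9.72e-16), Abcc5 (1.65 ± 0.08, adjusted p = 2.82e-17) and Abcc1 (1.51 ± 0.06, adjusted p = 6.93e-20). They were lower for Abcc4 (-2.02 ± 0.08, adjusted p = 5.08e-19) and Abcc3 (-1.04 ± 0.26, adjusted p = 0.000792). Abcb1a was higher in EMT6 by 0.41 ± 0.15 (adjusted p = 0.0144), a call lost on leaving out any one of 3 libraries: 4T1 control replicate 1 (0.35, adjusted p = 0.0658), 4T1 control replicate 3 (0.34, adjusted p = 0.0695) or EMT6 control replicate 3 (0.33, adjusted p = 0.0697). For Abcb1b, 6631 reads in 4T1 stood against 3 in EMT6, a ratio scaled to library totals of 2554 with a counting interval of 873 to 12386. All 7 were called, 4 higher and 3 lower in EMT6, where 75.1% of 14197 genes were called, 37.5% higher and 37.6% lower. The groups did not overlap for any of the 7, as for 74.9% of genes. Abcb1b entered this comparison through 4T1 alone, since no EMT6 library passed the low-count filter for it. Nothing is therefore read from its call or its lack of overlap.

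The order of the transporters, compared per length by FPKM, differed between the lines. FPKM divides reads by the deposited exon size, 7990 bases for Abcb1b and 15092 for Abcc1. The order, like the sums and shares of FPKM given below, depends on these sizes. In 4T1 controls it ran Abcb1b (18.5 ± 0.220, SD), Abcc1 (9.81 ± 0.680), Abcc4 (9.14 ± 0.258), Abcc5 (1.47 ± 0.0964), Abcb1a (1.29 ± 0.194), Abcc3 (0.727 ± 0.155) and Abcg2 (0.393 ± 0.0493). The ranges of Abcc1 and Abcc4 overlapped, as did those of Abcc5 and Abcb1a. In EMT6 controls it ran Abcc1 (27.6 ± 1.65), Abcc5 (4.55 ± 0.220), Abcg2 (2.49 ± 0.0265), Abcc4 (2.22 ± 0.155), Abcb1a (1.68 ± 0.157) and Abcc3 (0.35 ± 0.01), with Abcb1b last and no ranges of neighbours overlapping. In 4T1 KO, Abcc5 (2.74 ± 0.0208) stood clear of Abcb1a (0.94 ± 0.111), and Abcc1 (11.7 ± 0.199) stood clear of Abcc4 (9.51 ± 0.406). In EMT6 KO, Abcc1 (23.0 ± 1.14) and Abcc5 (2.89 ± 0.155) still led, followed by Abcb1a (1.02 ± 0.106), and Abcg2 (0.457 ± 0.0404) and Abcc4 (0.407 ± 0.0666) overlapped.

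Summed over the 7 genes, the transporters came to 41.3 ± 0.615 FPKM in 4T1 controls, 42.6 ± 0.429 in 4T1 KO, and 38.9 ± 1.91 in EMT6 controls (SD, n = 3). In EMT6 KO the mean was 27.8, and the libraries stood between 26.85 and 29.18 FPKM. Abcb1b made up 44.8% of this sum in 4T1 controls and 40.2% in 4T1 KO. Abcc1 made up 70.9% in EMT6 controls and 82.7% in EMT6 KO. The share of Abcg2 was 0.952% in 4T1 controls, 0.0786% in 4T1 KO, 6.41% in EMT6 controls and 1.65% in EMT6 KO. Abcg2 was thus a minor part of the transporter messages in every group, and a sum of FPKM says nothing of protein or pumping.

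**Figure D3:**
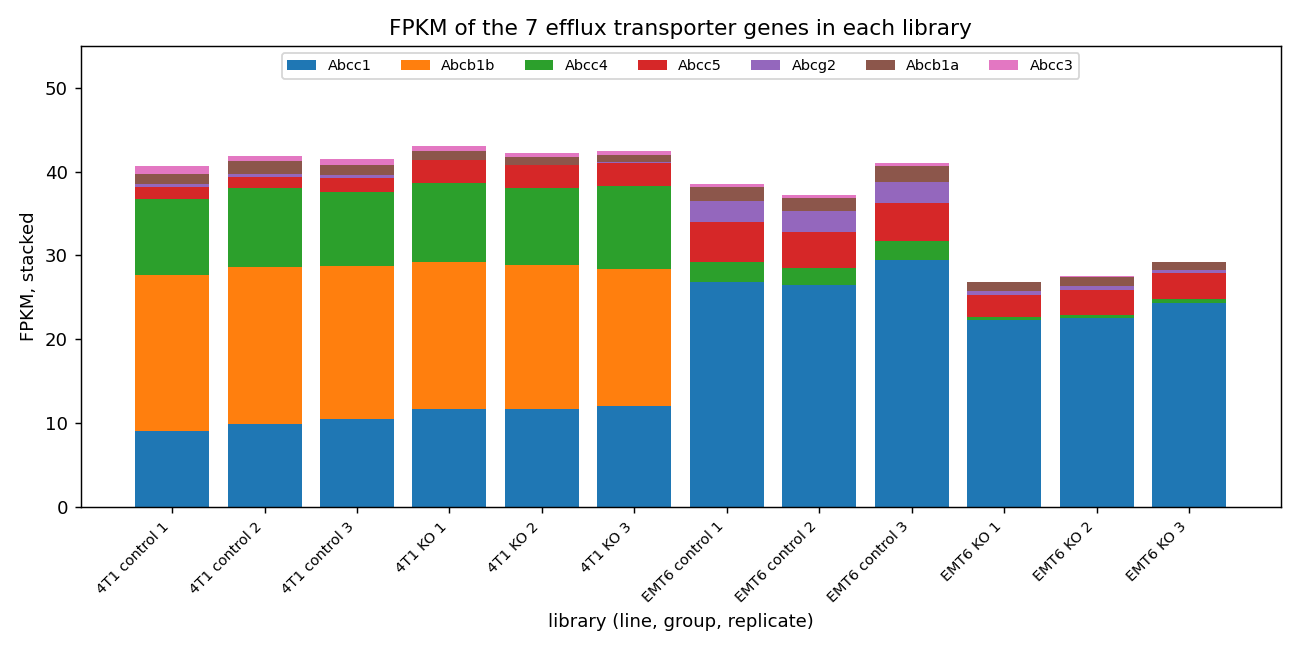
FPKM of the 7 transporters stacked in each of the 12 libraries (x axis, by line, group and replicate; y axis from 0). Abcb1b takes on average 44.8% of the 4T1 control bars and is not visible in EMT6, Abcc1 takes 70.9% of the EMT6 control bars, and the EMT6 KO bars are the lowest, at 26.85 to 29.18 FPKM.

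Of 44 other ABC transporters, 18 were tested in 4T1 and 24 in EMT6. In 4T1, 8 were called higher and 3 lower (median log2 change 0.22, against 0.00 for all tested genes), and in EMT6 10 were called higher and 6 lower (median 0.08). Tap1 and Tap2, which load peptides for antigen presentation, rose by 0.53 ± 0.06 and 0.60 ± 0.06 in EMT6, and Tap1 by 0.62 ± 0.08 in 4T1 (SE). Abca7 and Abca2, lipid transporters, rose in 4T1 by 0.88 ± 0.07 and 0.52 ± 0.05. In EMT6, Abca3, the surfactant lipid transporter, fell by 1.08 ± 0.07 and Abca8b by 1.85 ± 0.10. Abcg4, the member of the Abcg2 subfamily tested in 4T1, was not called there (0.12 ± 0.33).

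Of 27 tested enzymes of drug metabolism in 4T1, 16 were called higher and 2 lower (median 0.32), where 28% of all tested genes were called higher and 29.0% lower. Of 29 in EMT6, 5 were called higher and 17 lower (median -0.23), where the shares of all genes were 27.9% and 28.2%. The lists were not compared between the lines by a test. Ephx1, the microsomal epoxide hydrolase, rose by 1.92 ± 0.10 in 4T1 and fell by 0.47 ± 0.06 in EMT6. Aldh3a1, an aldehyde dehydrogenase, rose by 1.51 ± 0.12 in 4T1. Gsta4 and Mgst1, glutathione transferases that make the conjugates MRPs export, fell by 1.07 ± 0.06 and 1.52 ± 0.08 in EMT6. Among uptake carriers, 2 of 16 were called higher and 6 lower in 4T1, and 7 of 14 higher and 4 lower in EMT6. These stand beside the same shares of all genes as given for the enzymes. With total-count scaling, 5 carriers were called higher in 4T1. Slc29a1, an equilibrative nucleoside carrier, fell by 0.34 ± 0.05 in 4T1 and rose by 0.95 ± 0.07 in EMT6.

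The MRPs export prostanoids, leukotrienes and cyclic nucleotides. Of 20 tested genes that make or clear these in EMT6, 1 was called higher and 13 lower (median -0.39), where 27.9% and 28.2% of all tested genes were. In 4T1, 6 were called higher and 7 lower (median 0.13), where 28% and 29.0% of all tested genes were. Slco2a1, the prostaglandin uptake carrier, fell by 0.95 ± 0.05 in 4T1 and 1.08 ± 0.06 in EMT6. Ptgs2 (COX-2) fell by 0.68 ± 0.04 and 0.80 ± 0.08. Ptges, which makes prostaglandin E2, fell by 2.05 ± 0.11 in 4T1 and rose by 0.41 ± 0.06 in EMT6. Ptgs1 (COX-1) rose in 4T1 by 1.33 ± 0.08. Abcg2 exports protoporphyrin, the precursor of heme. Of 17 tested genes of heme metabolism, 8 were called higher and 2 lower in 4T1, and 6 higher and 7 lower in EMT6. The shares of all tested genes beside these are those given above for each line. Slc48a1, a heme carrier, rose in 4T1 by 0.97 ± 0.05, and Flvcr1, a heme exporter, rose in EMT6 by 0.94 ± 0.08.

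Regulators linked to these pumps were called in both directions. Of 36 tested transcription factors, 10 were called higher and 10 lower in 4T1 (median -0.03) and 12 higher and 13 lower in EMT6 (median 0.04). Nfe2l2 (NRF2), which acts through antioxidant response elements, fell in EMT6 by 0.38 ± 0.06, and Hif1a, the hypoxia factor, by 0.55 ± 0.06. Myc fell in both lines, by 0.57 ± 0.05 and 0.62 ± 0.07. Jun fell by 0.41 ± 0.05 in 4T1 and rose by 1.23 ± 0.10 in EMT6. Of 21 tested genes that anchor, phosphorylate or degrade the pumps, 7 were called higher and 9 lower in 4T1, and 6 higher and 10 lower in EMT6, Nedd4 among the lower. With total-count scaling, 3 of them were called lower in 4T1. Cav1 (caveolin-1) rose in 4T1 by 0.53 ± 0.05, and Slc9a3r2, a scaffold that binds transporter tails, fell in EMT6 by 0.75 ± 0.08.

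**Figure D4:**
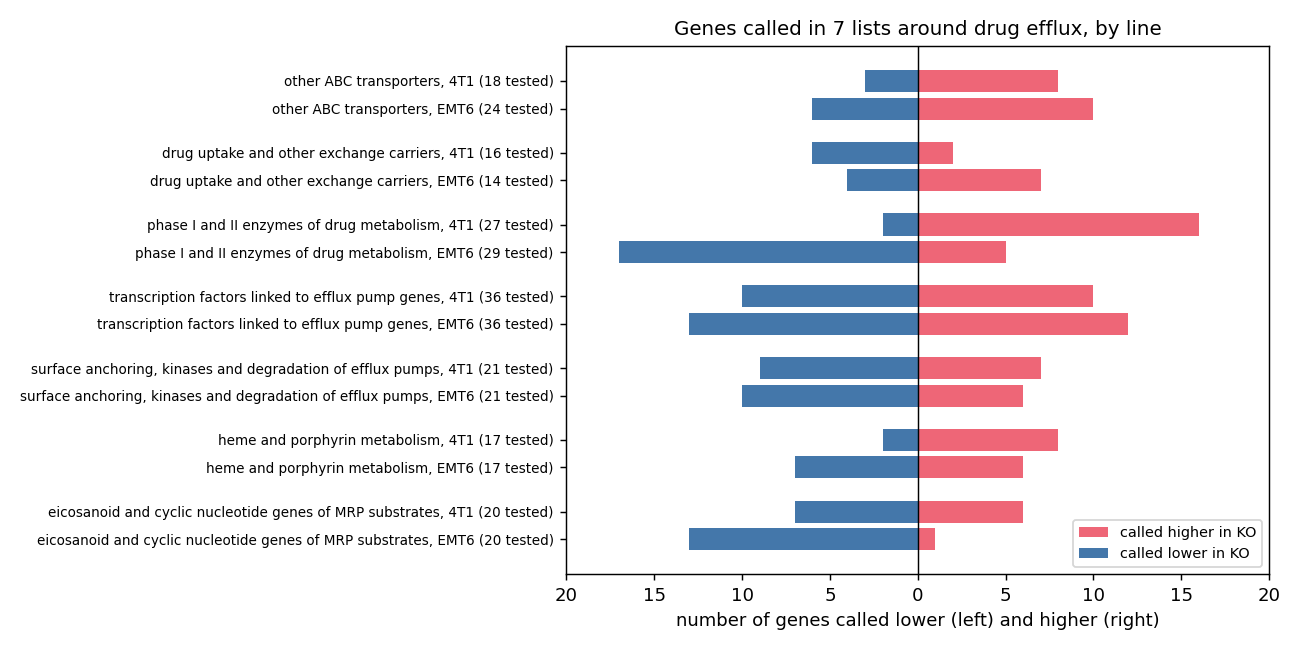
Number of genes called lower (bars to the left of 0) and higher (bars to the right) by edgeR in KO (x axis) for each gene list and line (y axis), with the tested number in the label. Drug metabolism shows 16 higher and 2 lower in 4T1 against 5 higher and 17 lower in EMT6, and the prostanoid and cyclic nucleotide list shows 13 lower in EMT6.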

How the data were processed

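The submitters' processing notes name DESeq2, HTSeq 0.6.1, HISAT2 2.2.1, cutadapt 1.9.1 and the GRCm38 genome. What each did, and how strand was handled, is not stated in the sources used here. The authors deposited, for each line, raw read counts and FPKM per gene; FPKM recomputed here from counts, totals and exon size matched all 680292 values within 0.01. Coordinates are from GENCODE M21.

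Counts were tested in R 4.3.3 with edgeR 4.0.16 (filterByExpr, TMM, robust quasi-likelihood test, 2-sided), per line, and over 12 libraries for the interaction and the controls of the lines. P-values were adjusted by Benjamini-Hochberg over all tested genes, with a threshold of 0.05. Code was tested on simulated data. Alternatives were DESeq2 1.42.0, limma-voom (limma 3.58.1), other scalings and filters, a replicate block and leaving out each library. An exact permutation test of 3 against 3 cannot go below p = 0.1.

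The members and lists were chosen with earlier results of these data known. Besides members, the rule names up to 4 called genes per list and line with the lowest adjusted p, a mean of at least 1 FPKM and groups that do not overlap, 3 list genes called in opposite directions, and the 5 genes most like Abcg2. Abcg4 was chosen after its values were seen. A gene named by the rule is not reported here.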

Additional observations from a re-analysis of the deposited data

Results flagged for a closer look

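The interaction of line and genotype passed its threshold for 4 transporters besides Abcg2. It is built from the contrasts that chose these genes and is given as a description. The difference (EMT6 minus 4T1, log2) was -0.46 for Abcc1 and -1.50 for Abcc5, which were higher in 4T1 KO and lower in EMT6 KO. It was -2.45 for Abcc4, whose 4T1 groups overlapped, and -2.81 for Abcc3, which was lower in both lines and passed the filter in EMT6 through its controls alone. Among the listed genes, 40 were called in opposite directions in the lines, and those with the lowest interaction p were Ephx1 (-2.41, edgeR adjusted p = 2.18e-14), Gsta4 (-1.78, adjusted p = 3.29e-12) and Ptges (2.44, adjusted p = 4.5e-12). Of all tested genes, 57.0% were called in 4T1 and 56.0% in EMT6, in both directions. The share of all genes called in opposite directions is not given here, so nothing is read from the 40.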

How the results depend on the processing

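Abcg2 kept its direction and call within each line under every alternative that tested it, from -3.95 to -3.24 in 4T1 and -2.51 to -2.39 in EMT6. These fits reuse the libraries whose changes chose Abcg2, so the kept direction and call are a description and nothing is read from them. With only genes of mean 1 FPKM or more, Abcg2 was not tested in 4T1. Abcc4 in 4T1, not called, turned from -0.02 to 0.0577 with total-count scaling, 0.0054 with that filter, 0.0135 without control replicate 2 and 0.0009 without KO replicate 2 (leave-one-out range -0.0531 to 0.0135). The filter left 3 members called in the interaction, since Abcg2 and Abcc3 fall under 1 FPKM in 4T1. Over all alternatives, 6364 to 7906 genes were called in the interaction. Members called on leaving out 1 library ranged from 5 to 6 in 4T1, 6 to 6 in EMT6, 4 to 5 in the interaction and 6 to 7 between controls. All genes called ranged, in the same order, from 6853 to 7293, 6242 to 7040, 6818 to 7211 and 10243 to 10728. Nothing is read from these member counts. With total-count scaling the higher share of calls in 4T1 went from 49.1% to 61.2% and the median of all genes to 0.08. There the uptake carriers called higher went from 2 to 5, the anchoring genes called lower from 9 to 3, and the drug metabolism genes called lower from 2 to 1. With no filter, or without EMT6 KO replicate 1, 3 other ABC genes were called lower in EMT6, against 6, and with no filter 5 were called higher in the interaction, against 3. Without EMT6 control replicate 2, 2 prostanoid and cyclic nucleotide genes were called higher in EMT6, against 1.

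With a replicate block, 7676 genes were called in 4T1, 6830 in EMT6, 6997 in the interaction and 10584 between controls, against 7589, 7224, 7197 and 10659, and no member's call changed. Same-numbered libraries did not deviate together (correlations -0.13 to 0.01), and differently numbered ones had correlations of -0.04 to 0.13. These values cannot show whether the numbers mark cultures handled together, which the sources used here do not say. Depth limits Abcg2 in 4T1 KO, Abcc3 in EMT6 KO and Abcb1b in EMT6, each at 7 reads or fewer per library.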

Other observations

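The genes whose pattern over the 12 libraries was most like that of Abcg2 were ranked by the root mean square difference of centred log2 CPM, among 10066 genes of at least 1 FPKM. Arap3, a GTPase-activating protein, came first at 0.728, with log2 changes of -1.54 in 4T1 and -2.37 in EMT6. Rassf6, a RAS-association protein, followed at 0.792 (-1.49 and -1.38), then Tubb2b, a beta-tubulin, at 0.874 (-1.50 and -0.83). Kcnk6, a potassium channel, stood at 0.947 (-2.14 and -0.32) and Id3, an inhibitor of helix-loop-helix factors, at 0.951 (-2.30 and -0.07). The median candidate differed by 2.08, and Abcg2 itself had a standard deviation of 2.10. All 5 were higher in EMT6 controls than in 4T1 controls, by 1.84 to 3.81 on the log2 scale. The 5 were picked by likeness to Abcg2 over these same libraries, so nothing is read from this direction or from their knockout changes.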
